A study of Homo sapiens with 6 samples.

Results

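The genes described here are 10 members of the YAP and TEAD pathway: YAP1, TEAD1, CYR61, CTGF, ANKRD1, AMOTL1, AMOTL2, AXL, AJUBA and LATS2. They were picked by name, with no measured value in the rule, but with earlier results of these data known. All 10 were found as single rows among the 58735 genes of the deposited table. There CYR61 and CTGF stand for the genes now called CCN1 and CCN2. The study sequenced RNA from A549, a long-established line of human lung adenocarcinoma cells, in 2 groups of 3 libraries. In the ZBTB16 group the cells were transfected with a plasmid carrying ZBTB16 (PLZF), a BTB and zinc finger transcription factor known mainly as a repressor, and the labels give the genotype as overexpression. In the empty-vector group they were transfected with pcDNA3.1, an expression vector with a cytomegalovirus promoter, and are labelled wild type. Both groups share the A549 background, the F12K medium and the act of transfection. The labels give no time after transfection, no share of transfected cells and no statement that the repeats were separate cultures, so p-values here reflect library-to-library spread alone, and that spread may be technical.

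YAP1 is a transcriptional coactivator that cannot bind DNA itself and reaches its target genes through the TEAD factors. The Hippo kinases STK3 and STK4, with the scaffold SAV1, activate the kinases LATS1 and LATS2 and their partners MOB1A and MOB1B. LATS kinases phosphorylate YAP, which keeps it in the cytoplasm and marks it for degradation. Angiomotins hold YAP at junctions and in the cytoplasm, and AJUBA family LIM proteins bind and restrain LATS. CYR61, CTGF, ANKRD1, AXL, AMOTL2 and LATS2 are known targets of YAP, the last 2 of them as part of a negative feedback. In lung adenocarcinoma the pathway is known for links to growth, matrix signalling and drug tolerance. Because YAP is controlled mainly as a protein, the transcript level of YAP1 does not measure how much of it is active, and target transcripts are the usual readout at the RNA level.

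The libraries held 15478010 to 17319971 reads in the ZBTB16 group and 16515975 to 16744238 in the empty-vector group, as recovered from the FPKM values (fragments scaled by gene length and library size). ZBTB16 itself stood at 426, 488 and 456 FPKM in the ZBTB16 libraries and had 0 reads in each empty-vector library. The 8 markers of A549 and epithelium summed to 3478 to 3699 FPKM in ZBTB16 libraries and 3628 to 3746 FPKM in empty-vector libraries, led by ALDH1A1, with KRT8 at a mean of 607 FPKM and EPCAM far lower, at 1.24 ± 0.134 FPKM in ZBTB16 cells and 1.26 ± 0.213 FPKM in empty-vector cells (SD, n = 3 each). The labels' extraction text mentions retinas, but CRX, a defining marker of that tissue, had 0 reads in all 6 libraries. Of that list 1 of 8 markers reached a mean of 1 FPKM, the cone opsin gene OPN1SW at 3.07, and the list summed to 2.52 to 4.33 FPKM in ZBTB16 libraries and 3.58 to 3.89 in empty-vector libraries. Endothelial and muscle or heart markers summed to at most 0.263 FPKM in any library, with MYH6 and MYH7 at 0 reads. Fibroblast markers summed to 2.11 to 2.52 FPKM in ZBTB16 libraries and 2.15 to 2.48 in empty-vector libraries, with COL1A2 at 0 reads, and immune markers to 3.26 to 3.43 and 3.15 to 3.79 in the same order, nearly all from CD14, with CD3E at 0 reads. In bulk RNA, fewer cells of a type and less RNA per cell cannot be told apart. Empty-vector replicate 1 stood apart by gene length. Among protein-coding genes of 207 to 2910 bases its median log2 deviation from the 6-library mean was 0.06, and among those of 8145 to 46064 bases it was -0.04. In the other 5 libraries these medians lay between -0.03 and 0.02.

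None of the 10 genes passed the test between ZBTB16 and empty-vector cells. The groups overlapped in 8 of them, and in AXL and AMOTL2 every ZBTB16 value lay above every empty-vector value. That order held for 8.12% of all tested genes and the opposite order for 8.10%. In limma on log2(FPKM + 1), 0 were higher and 0 lower at a Benjamini-Hochberg adjusted p under 0.05. That compares with 0.0720% of all 12499 tested genes, those with a mean of at least 1 FPKM, a share that includes ZBTB16 itself. At an unadjusted p under 0.05 the count of members was also 0, where 10.2% of tested genes passed in the same fit. With limma voom on the recovered reads the count was 0 at either threshold. There 206 of all 12499 tested genes passed at the adjusted threshold, and the unadjusted share was not counted. The limma adjusted p of the 10 ran from 0.533 to 0.996. Their median log2 fold change was 0.02, with 8 positive and 2 negative, beside a median of -0.003 and 48.5% positive over all tested genes. Without empty-vector replicate 1, 5 of the 10 were positive. All 10 passed the filter on low values. The limma 95% intervals of the 10 lay between -0.24 and 0.40 on log2(FPKM + 1), a scale that understates changes of low genes. Changes beyond those bounds lie outside every member's interval on that scale alone. With limma voom on the recovered reads the intervals reached 0.48 for ANKRD1 and -0.30 for CTGF. The plot of FPKM by library shows each value.

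**Figure D1:**
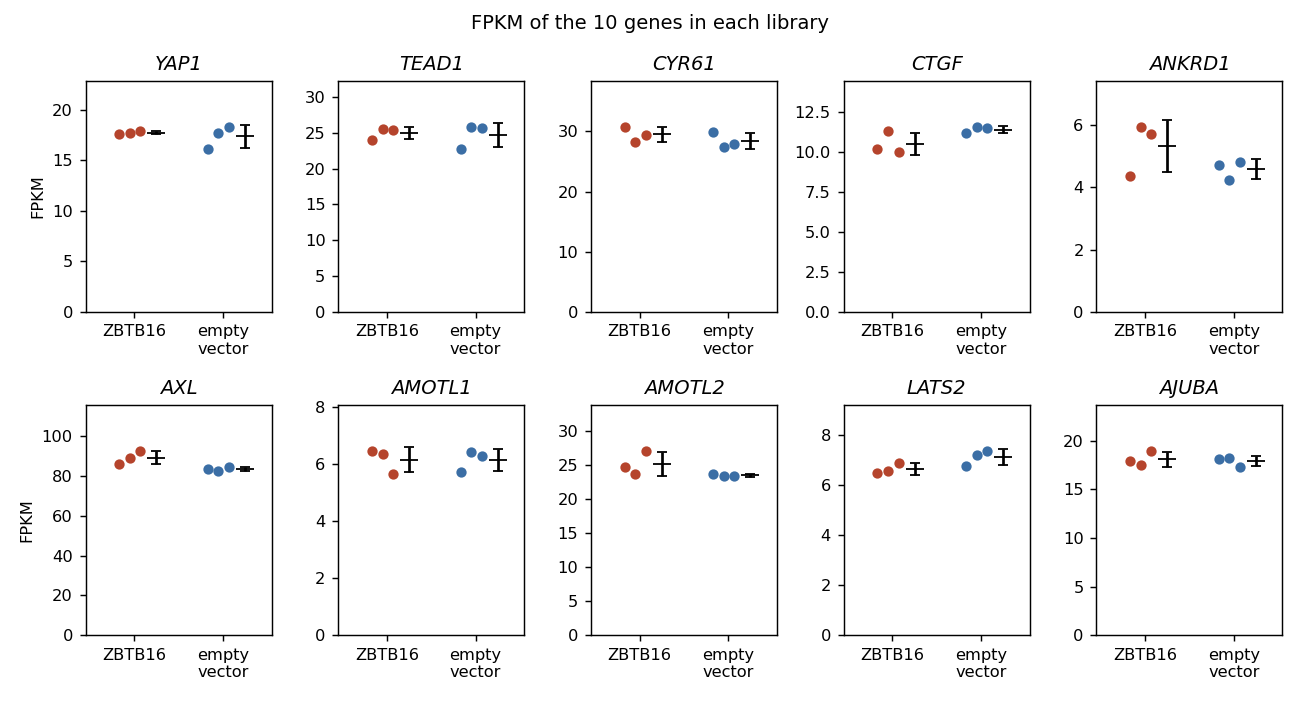
FPKM (vertical axes, starting at 0) of each of the 10 genes in the 3 ZBTB16 libraries (red, left) and the 3 empty-vector libraries (blue, right), with the mean and SD of each group in black; points of a group run from replicate 1 to 3. The groups overlap in 8 genes, and AXL and AMOTL2 have all ZBTB16 values above all empty-vector values by a small margin. Of all tested genes 8.12% have that order and 8.10% the opposite one.

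YAP1, the coactivator, lies on chromosome 11 (hg38, 102110461 to 102233423, plus strand). It was at 17.6, 17.7 and 17.9 FPKM in the ZBTB16 libraries, against 16.1, 17.7 and 18.3 FPKM in the empty-vector libraries. The ZBTB16 values lay inside the empty-vector range, with means of 17.8 ± 0.155 and 17.4 ± 1.10 FPKM (SD, n = 3 each). The log2 fold change of 0.03 had a limma 95% interval of -0.09 to 0.16 and an adjusted p of 0.907. The low value came from empty-vector replicate 1, and without it the log2 fold change was -0.02. Exons of AP000942.2 on the opposite strand cover 9.97% of the YAP1 exons. Use of strand in counting is not stated in the sources at hand, so reads of such overlapping genes cannot be told apart.

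WWTR1 encodes TAZ, the close relative of YAP1, and stood at a higher level per length. Exons of WWTR1-AS1 on the opposite strand cover 9.45% of its exons. It averaged 22.7 ± 0.410 FPKM in ZBTB16 cells and 23.2 ± 0.415 FPKM in empty-vector cells (SD, n = 3 each). The ratio of YAP1 to WWTR1 FPKM was 0.789, 0.767 and 0.796 in ZBTB16 libraries, against 0.711, 0.753 and 0.782 in empty-vector libraries. These ratios overlapped, with an exact two-sided permutation p of 0.2, or 0.333 adjusted over the 5 ratios between family members that were compared. With 3 libraries against 3 the smallest p this exact test can give is 0.1.

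TEAD1, the TEAD factor with the highest level in these cells, lies on the plus strand of chromosome 11 at 12674591 to 12944483. It was at 24.0, 25.5 and 25.4 FPKM with ZBTB16, against 22.7, 25.8 and 25.6 FPKM with empty vector. The values interleaved, and the log2 fold change was 0.02 (limma 95% interval -0.12 to 0.15, adjusted p = 0.962). As for YAP1, the lowest value was that of empty-vector replicate 1, without which the log2 fold change was -0.04. TEAD1 made up 44.6% ± 2.01 of the summed FPKM of the 4 TEAD genes with ZBTB16 and 43.2% ± 1.5 with empty vector (SD, n = 3 each). TEAD4 came next, at 16.8 ± 0.729 FPKM with ZBTB16 and 18.3 ± 0.792 FPKM with empty vector. Its ZBTB16 values all lay below its empty-vector values, yet the log2 fold change of -0.12 did not pass (limma adjusted p = 0.505, exact permutation p = 0.1). TEAD2 averaged 11.1 FPKM in ZBTB16 cells and 11.2 in empty-vector cells, and TEAD3 3.12 and 3.04 in the same order. The ratio of TEAD1 to TEAD4 averaged 1.49 ± 0.102 with ZBTB16 and 1.35 ± 0.0772 with empty vector, and the groups overlapped (exact permutation p = 0.2, adjusted p = 0.333).

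CYR61 and CTGF encode secreted matricellular proteins of the CCN family and are the most used transcript readouts of YAP and TEAD activity. CYR61 (chromosome 1, 85580761 to 85583962, plus strand) was at 30.7, 28.3 and 29.5 FPKM with ZBTB16, against 30.0, 27.4 and 27.9 FPKM with empty vector. The groups overlapped, and the difference of 3.83% in mean FPKM was smaller than the SD of either group, 1.20 FPKM for a ZBTB16 mean of 29.5 and 1.37 FPKM for an empty-vector mean of 28.4. Its log2 fold change was 0.05 (limma 95% interval -0.07 to 0.17, adjusted p = 0.828). CTGF (chromosome 6, 131948176 to 131951373, minus strand) was at 10.2, 11.3 and 10.0 FPKM with ZBTB16, against 11.2, 11.6 and 11.5 FPKM with empty vector. ZBTB16 replicate 2 lay within the empty-vector range and the other two ZBTB16 libraries below it. The log2 fold change of -0.11 did not pass (limma 95% interval -0.24 to 0.02, adjusted p = 0.569), and without ZBTB16 replicate 2 it was -0.16 with an adjusted p of 0.365. CTGF rested on 369 to 453 reads per library, a counting error of up to 5.21%, and exons of AL133346.1 on the opposite strand cover 8.34% of its exons.

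The stretches before the transcript starts of CTGF, ANKRD1 and YAP1 are shown because the first pair are textbook direct targets whose promoters carry the TEAD core motif, and YAP1 is the coactivator itself. RefSeq windows (GRCh38.p14) of 250 bases before a start were matched for 8 of the 10 genes, 11 starts in all, and CYR61 and TEAD1 had none in the table. Each sequence is written 5′ to 3′ on the gene's own strand, with matches to the TEAD core motif GGAATG in capitals and bases annotated as exon in GENCODE 29 left out, so that the ANKRD1 stretch holds 1 of the 2 matches of its window.
CTGF, minus strand, chr6:131951374-131951622: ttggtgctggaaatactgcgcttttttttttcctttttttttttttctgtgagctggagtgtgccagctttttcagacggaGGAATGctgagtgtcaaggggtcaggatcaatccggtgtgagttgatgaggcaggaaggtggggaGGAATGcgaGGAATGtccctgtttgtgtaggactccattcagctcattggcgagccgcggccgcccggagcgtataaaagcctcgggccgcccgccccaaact
ANKRD1, minus strand, chr10:90921277-90921337: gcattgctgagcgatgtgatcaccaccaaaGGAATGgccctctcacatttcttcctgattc
YAP1, plus strand, chr11:102110197-102110446: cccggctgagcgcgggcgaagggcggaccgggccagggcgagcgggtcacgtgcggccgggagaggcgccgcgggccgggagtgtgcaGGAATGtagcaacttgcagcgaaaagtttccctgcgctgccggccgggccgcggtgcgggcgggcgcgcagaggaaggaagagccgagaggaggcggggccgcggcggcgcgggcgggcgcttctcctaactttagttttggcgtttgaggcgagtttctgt

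The CTGF window held 3 matches to GGAATG, which began 169, 104 and 95 bases before the start. Counting both strands, 11.9% of the 35116 RefSeq windows hold at least 1 match and 0.0826% at least 3. ANKRD1 had 2 matches in its whole window, 220 and 128 bases before the start, where 0.940% of all windows hold at least 2. YAP1 had 1 match, and so did 1 of the 2 starts each of AMOTL2, AXL and AJUBA, so that 6 of the 11 windows had the motif. In AMOTL2, AXL and AJUBA the match lay before the more downstream start, and the 5′-most start had 0. AMOTL1 and LATS2 had none within 250 bases. The only AMOTL1 start in the windows, at 94768356, lies inside the gene, which begins at 94706431. AP-1 is a partner of TEAD at many enhancers, and a loose form of its motif, TGANTCA with any base in the middle, was searched. It matched in 1 of the 11 windows, that of ANKRD1, and in 6.57% of all windows. The ANKRD1 match has T in the middle and shares no base with the GGAATG matches there. A stricter form with C or G in the middle therefore has no match in these windows, and its share of all windows was not counted. These are letter matches in a short window and not measured binding. The plot of motif positions places them against each start. No member passed the test between the groups, so motif counts could not be compared between members that passed and members that did not.

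**Figure D2:**
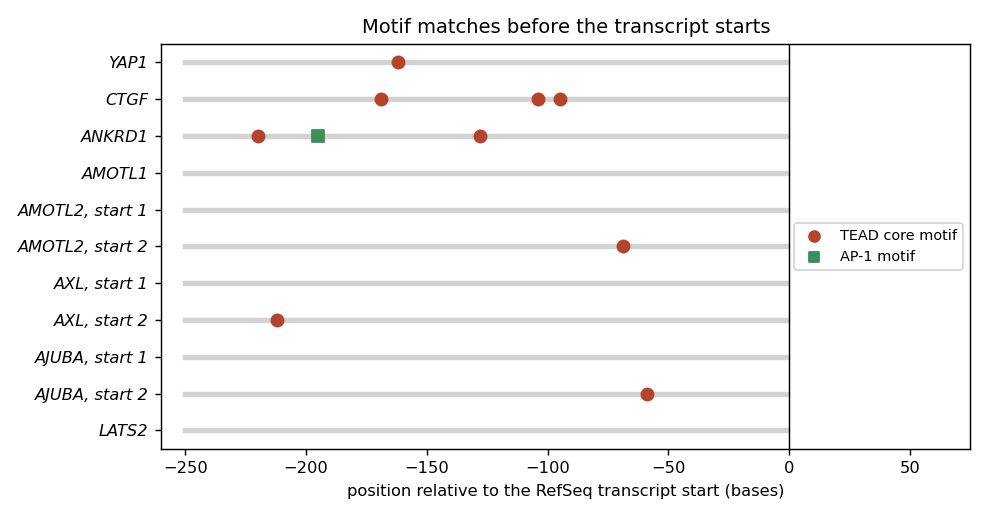
Positions of TEAD core motif matches (red circles) and AP-1 pattern matches (green squares) in the 250 bases before each RefSeq transcript start. The AP-1 pattern, TGANTCA, is a loose form that allows any base in the middle. Matches are placed by their 5′-most base on the gene's strand (horizontal axis, bases from the start at 0). Grey lines are the windows searched. CTGF has 3 TEAD core matches and ANKRD1 has 2 with an AP-1 pattern match between them, while AMOTL1 and LATS2 have no match.

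Within the CCN family CYR61 was the most abundant member, at 51.0% ± 2.26 of the family's summed FPKM with ZBTB16 and 51.8% ± 0.479 with empty vector (SD, n = 3 each). CTGF held 18.2% ± 1.08 with ZBTB16 and 20.9% ± 1.18 with empty vector. Between them in level stood WISP2, the CCN member without the C-terminal domain of the others, at 14.3, 15.6 and 15.6 FPKM with ZBTB16 and 13.6, 11.6 and 12.02 FPKM with empty vector. All its ZBTB16 values lay above its empty-vector values, with a log2 fold change of 0.27 that did not pass in limma on log2 FPKM (adjusted p = 0.179) and did with limma voom on the recovered reads (adjusted p = 0.0170). NOV averaged 2.51 FPKM in ZBTB16 cells and 2.38 in empty-vector cells, and WISP1 and WISP3 were under 1 FPKM in all libraries. The ratio of CTGF to CYR61 was 0.333, 0.400 and 0.340 in ZBTB16 libraries, against 0.374, 0.423 and 0.412 in empty-vector libraries, and the groups overlapped (exact permutation p = 0.2, adjusted p = 0.333 over 5 ratios).

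ANKRD1, a cardiac ankyrin repeat protein best known from stressed heart and muscle and a sensitive YAP target in epithelial cells, had the lowest level of the 10 and the largest standard error in limma, 0.099 on the log2 scale. Its gene is on chromosome 10 (90912096 to 90921276, minus strand). It was at 4.38, 5.94 and 5.71 FPKM with ZBTB16, against 4.71, 4.24 and 4.82 FPKM with empty vector. ZBTB16 replicates 2 and 3 were the highest of the 6 libraries, while ZBTB16 replicate 1 fell inside the empty-vector range. The log2 fold change of 0.18 did not pass (limma 95% interval -0.05 to 0.40, adjusted p = 0.628). Without ZBTB16 replicate 1 it was 0.29, with a limma adjusted p of 0.256. Over all 6 libraries limma voom on the recovered reads gave 0.21 (adjusted p = 0.627). Only 134 to 201 reads per library stood behind these values, a counting error of up to 8.64%, and the SD was 15.7% of the mean with ZBTB16 and 6.76% with empty vector. Its paralogs ANKRD2 and ANKRD23 averaged 0.855 and 0.183 FPKM with ZBTB16, and 1.13 and 0.146 FPKM with empty vector.

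AXL, a receptor tyrosine kinase for GAS6 that YAP and TEAD are known to induce, was the most abundant of the 10. On the plus strand of chromosome 19 at 41219203 to 41261766, it was at 85.7, 88.9 and 92.5 FPKM with ZBTB16, against 83.4, 82.4 and 84.5 FPKM with empty vector. Every ZBTB16 value lay above every empty-vector value. The means, 89.0 ± 3.36 and 83.4 ± 1.07 FPKM (SD, n = 3 each), differed by 6.71%. The log2 fold change of 0.09 did not pass (limma 95% interval -0.01 to 0.19, adjusted p = 0.533, exact permutation p = 0.1). With 6824 to 8263 reads per library its counting error was at most 1.21%, and its standard error of 0.044 was the smallest among the 10 genes, against 0.099 for ANKRD1. AXL held 96.5% ± 0.374 of the summed FPKM of its receptor family with ZBTB16 and 96.2% ± 0.142 with empty vector, with TYRO3 at 1.99 and 1.98 FPKM and MERTK at 1.19 and 1.29 FPKM in the same order.

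AMOTL2 and AMOTL1 are angiomotin family proteins that bind YAP, and AMOTL2 is also a YAP target. AMOTL2 (chromosome 3, 134355874 to 134375479, minus strand) was at 24.7, 23.8 and 27.1 FPKM with ZBTB16, against 23.7, 23.4 and 23.5 FPKM with empty vector. Its groups did not overlap, but ZBTB16 replicate 2 lay close to the highest empty-vector value. The log2 fold change was 0.09 (limma 95% interval -0.03 to 0.22, adjusted p = 0.644, exact permutation p = 0.1). AMOTL1 (chromosome 11, 94706431 to 94876753, plus strand) was at 6.46, 6.34 and 5.67 FPKM with ZBTB16, against 5.72, 6.42 and 6.28 FPKM with empty vector. Exons of AP002383.2 on the opposite strand cover 4.94% of its exons. The groups interleaved, with a log2 fold change of 0.003 (limma 95% interval -0.15 to 0.15, adjusted p = 0.996), and without empty-vector replicate 1 it was -0.040. AMOT, the founding member, had 1 to 3 reads per library. AMOTL2 therefore held 80.3% ± 2.08 of the family's summed FPKM with ZBTB16 and 79.3% ± 1.11 with empty vector, and its ratio to AMOTL1 averaged 4.12 ± 0.578 with ZBTB16 and 3.84 ± 0.265 with empty vector (exact permutation p = 0.5, adjusted p = 0.625).

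LATS2, the kinase that inhibits YAP and is induced by it, is encoded on chromosome 13 (20973032 to 21061547, minus strand). It was at 6.45, 6.55 and 6.89 FPKM with ZBTB16, against 6.76, 7.20 and 7.35 FPKM with empty vector. ZBTB16 replicate 3 overlapped the lowest empty-vector value, that of replicate 1. The log2 fold change of -0.09 did not pass (limma 95% interval -0.21 to 0.04, adjusted p = 0.679). LATS1, the other kinase of the pair, averaged 2.95 ± 0.262 FPKM with ZBTB16 and 3.099 ± 0.211 FPKM with empty vector. The ratio of LATS2 to LATS1 averaged 2.26 ± 0.235 and 2.30 ± 0.0593 in the same order, with an exact permutation p of 0.8.

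AJUBA, a LIM domain protein of junctions that restrains LATS kinases, is encoded on chromosome 14 (22971174 to 22982642, minus strand). It was at 17.9, 17.5 and 19.0 FPKM with ZBTB16, against 18.2, 18.2 and 17.3 FPKM with empty vector. The highest and the second lowest value of the 6 were both ZBTB16 libraries, and the log2 fold change was 0.02 (limma 95% interval -0.10 to 0.13, adjusted p = 0.954). LIMD1 averaged 4.68 FPKM in ZBTB16 cells and 4.91 in empty-vector cells, and WTIP 2.51 and 2.77, so that AJUBA held 71.6% ± 0.738 of the family's FPKM with ZBTB16 and 69.95% ± 1.35 with empty vector (SD, n = 3 each). The plot of paralog levels sets each gene beside its relatives.

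**Figure D3:**
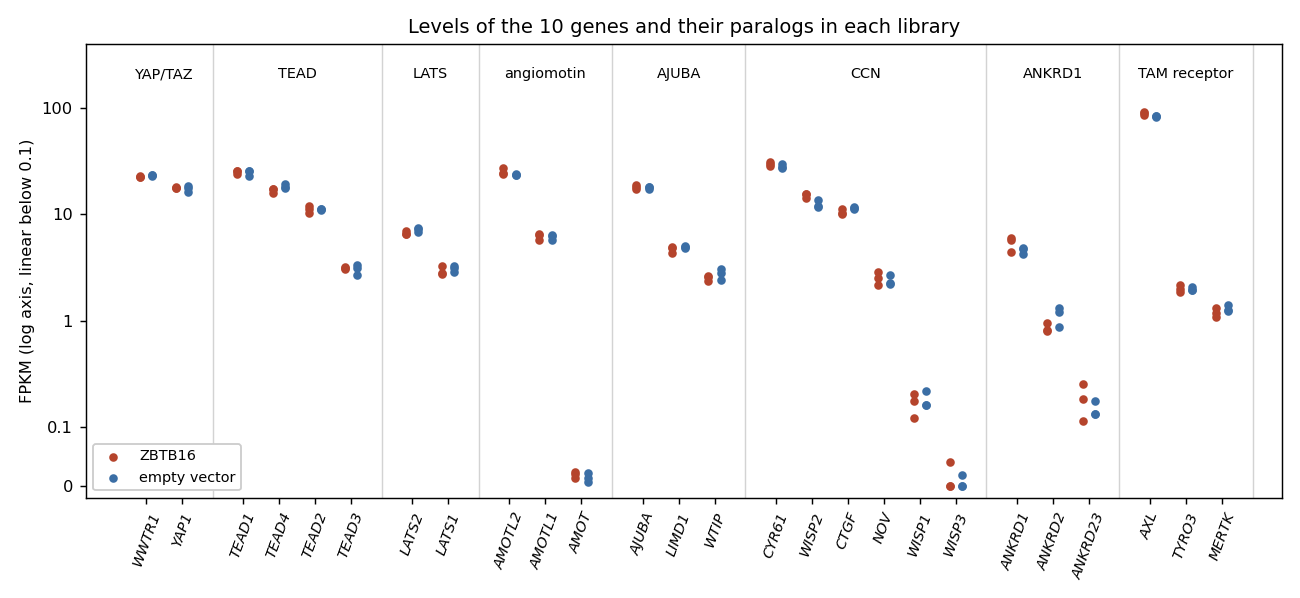
FPKM (vertical axis, logarithmic above 0.1 and linear below) of the 10 genes and their paralogs, grouped by family, with 1 point per library (red, ZBTB16, left of each pair; blue, empty vector, right). AXL, at a mean of 86.2 FPKM, stands far above its relatives TYRO3 and MERTK, while WWTR1 stands above YAP1.

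By level per length the order over the 6 libraries was AXL, CYR61, TEAD1, AMOTL2, AJUBA, YAP1, CTGF, LATS2, AMOTL1 and ANKRD1, with means of 86.2, 28.95, 24.8, 24.4, 18.0, 17.6, 11.0, 6.87, 6.15 and 4.97 FPKM. The 6-library ranges of neighbours overlapped between TEAD1 and AMOTL2, between AJUBA and YAP1, between LATS2 and AMOTL1 and between AMOTL1 and ANKRD1, and the other neighbours did not overlap. Both genes of such a pair were read in the same libraries, and this order was not tested. AXL stood above 96.3% of the 10808 tested protein-coding genes and ANKRD1 above 37.8%. FPKM divides by the merged length of all annotated exons, which was 1.40 times the longest transcript for AJUBA, 1.32 times for AMOTL2, 1.21 times for TEAD1 and equal to it for CTGF and ANKRD1, so the first 3 are understated relative to the length of a single transcript.

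Other genes of the Hippo pathway gave a like picture. Of a list of 30 further components 26 were tested, and 0 passed in limma on log2 FPKM in either direction, against 0.0720% of all tested genes. At an unadjusted p under 0.05, 1 was higher and 1 lower, where 10.2% of all tested genes passed in either direction. Their median log2 fold change was -0.01, with 10 positive and 16 negative, beside 48.5% positive over all tested genes. CRB3, an apical polarity protein, had the smallest p. It was at 2.32, 2.54 and 3.19 FPKM with ZBTB16 and 3.45, 3.91 and 3.21 FPKM with empty vector. Its log2 fold change on log2(FPKM + 1) was -0.30, from 57 to 104 reads (limma adjusted p = 0.311). With limma voom on the recovered reads it was -0.40 (adjusted p = 0.364). FRMD6, a FERM domain protein upstream of the kinases, had 4.57, 5.00 and 4.58 FPKM with ZBTB16 and 3.78, 4.26 and 4.07 FPKM with empty vector, a log2 fold change of 0.18 (limma adjusted p = 0.341). TEAD4 had the next smallest p. MOB1A, the LATS partner, had the highest mean of the list at 28.1 FPKM, followed by STRN4, a subunit of a phosphatase complex that opposes STK3 and STK4, at 23.0. The 4 components that were not tested were AMOT, DCHS1, FAT4 and VGLL1, of which VGLL1 had 0 reads in all libraries.

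The further YAP and TEAD targets, 16 genes of a published signature as recalled with the members left out, gave 15 tested genes and 0 calls in limma on log2 FPKM. At an unadjusted p under 0.05, 3 were higher and 0 lower, where 635 of all 12499 tested genes were higher and 646 lower. The list's median log2 fold change was 0.06, with 9 positive and 6 negative, beside a median of -0.003 and 48.5% positive over all tested genes, and in 5 of the 15 every ZBTB16 value lay above every empty-vector value. That order held for 8.12% of all tested genes and the opposite order, 0 of the 15, for 8.10%. Among the 10 members the counts were 2 above and 0 below, and among the 26 further Hippo components 3 above and 2 below. GADD45A, a growth arrest gene that also belongs to the p53 targets, had 34.0, 36.3 and 32.2 FPKM with ZBTB16, against 28.1, 23.0 and 23.4 FPKM with empty vector. Its log2 fold change of 0.45 did not pass over all genes (limma adjusted p = 0.0986), but it did with voom on the recovered reads (limma adjusted p = 0.000513). NT5E, the ectonucleotidase CD73, averaged 29.3 ± 1.17 FPKM with ZBTB16 and 26.3 ± 0.475 FPKM with empty vector (limma adjusted p = 0.283). TGFB2, a ligand of the TGF-beta receptors, averaged 7.66 ± 0.462 FPKM with ZBTB16 and 6.63 ± 0.221 FPKM with empty vector (limma adjusted p = 0.292), and TGFB2-OT1 on the same strand covers 26.6% of its exons. The most abundant targets of the list were the membrane repair protein MYOF at 108 FPKM and IGFBP3 at 85.5 FPKM over the 6 libraries, with log2 fold changes of 0.09 and 0.07. RBMS3, under 1 FPKM, was not tested. The plot of differences shows both lists beside the 10 genes.

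**Figure D4:**
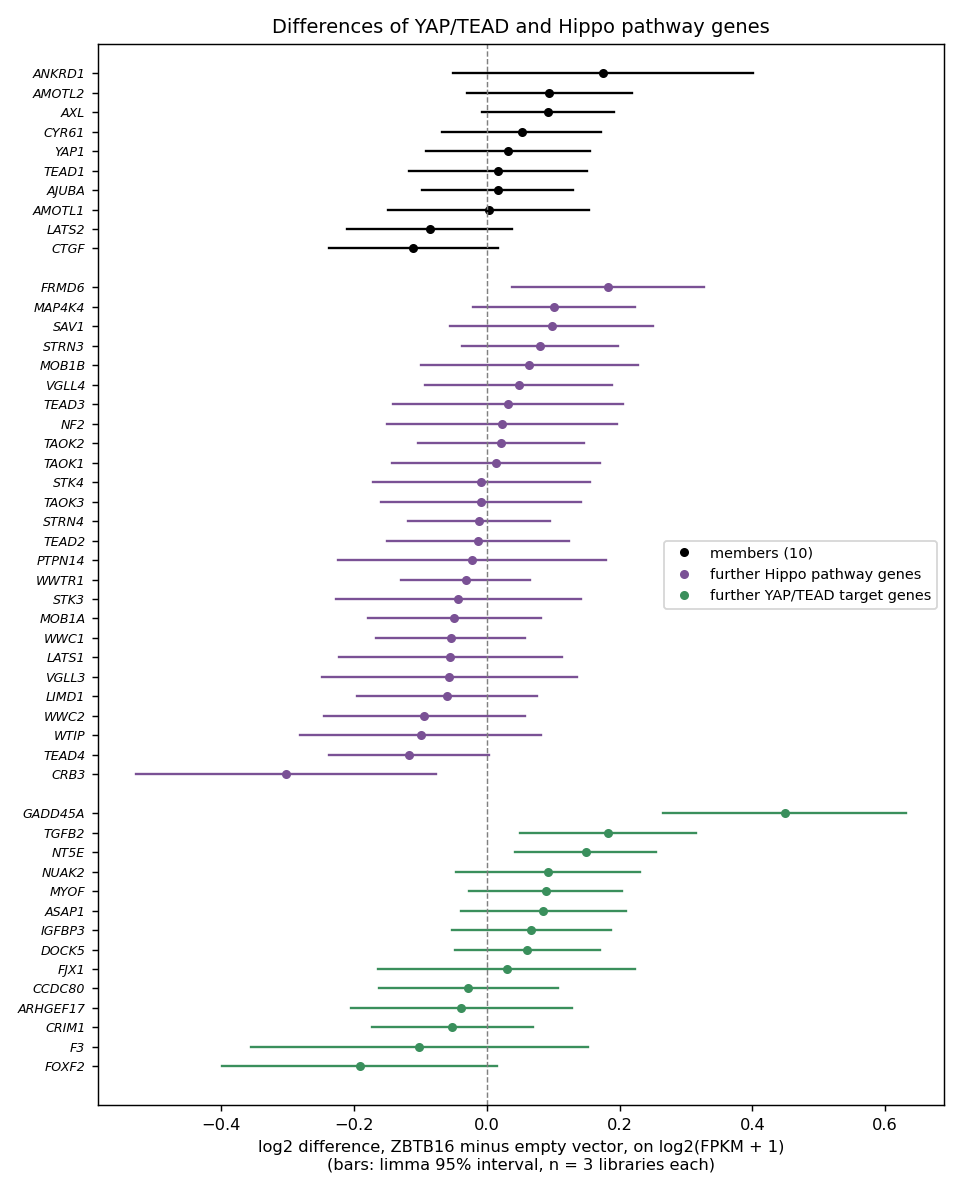
Log2 difference, ZBTB16 minus empty vector, on log2(FPKM + 1) (horizontal axis) with limma 95% intervals for the 10 genes (black), the 26 tested further Hippo pathway genes (purple) and the further target genes (green; PTPN14, which is on both lists, is drawn in purple). All 10 black intervals include 0, and GADD45A at 0.45 lies farthest from it.

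For the 3 classical targets, the protein-coding genes with the most similar profile over the 6 libraries were listed among 6688 candidates with a mean of at least 5 FPKM, by the mean absolute difference of log2(FPKM + 1) deviations. For CTGF they were MDFIC, HNRNPUL2 and NUP107, at 0.012, 0.013 and 0.014, where CTGF's own mean deviation from its 6-library mean was 0.070. For CYR61 they were RRNAD1, VPS28 and PDLIM7, at 0.0085, 0.0091 and 0.011, against an own deviation of 0.053. For ANKRD1 they were CDC26, RARRES3 and MDK, at 0.037, 0.044 and 0.053, against an own deviation of 0.13. The 3 sets share no gene. These are the smallest differences among many candidates over 6 libraries, and the likeness was not tested.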

How the data were processed

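Gene expression was analysed in 6 RNA-seq libraries of transfected A549 cells, 3 per group, grouped by sample title. The authors deposited FPKM for each gene and library. HISAT2 2.0.5 and hg38 appear in the submitters' processing notes, per the labels. For the counter, strand use and filters, nothing is stated in the sources at hand. Deposited gene lengths equal the merged exons of GENCODE 29 for 100% of genes. All FPKM values (100%) converted to whole reads within 0.01, from which reads per gene and depth were taken. Errors given from reads describe counting alone. Replicate libraries differed beyond counting noise, at mean chi-square values per gene between 2.28 and 5.19.

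Genes with a mean of at least 1 FPKM were compared on log2(FPKM + 1) by limma 3.58.1 (R 4.3.3) using a trended robust prior without covariates, two-sided. Calls required an adjusted p (Benjamini-Hochberg, 12499 genes) under 0.05. This scale understates changes of low genes. The fit was tested on simulated reads. Text names were the 10 members, their paralogs, and from each list any called genes or else the 3 with the smallest p, plus the 2 most abundant, and the 3 genes most like each classical target. WISP2, a paralog, was singled out after its values were seen. Members and lists were chosen with earlier results of these data known. Alternatives changed the pseudocount (0.1 and 0.5), filter, scaling and prior, used limma voom on recovered reads, added a replicate block or omitted single libraries. Removing each library's trend with gene length was an alternative chosen after seeing the data. Some marker genes are not reported here.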

Additional observations from a re-analysis of the deposited data

How the results depend on the processing

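Under 17 alternatives none of the 10 genes was called, and the smallest limma adjusted p was 0.256. Of 169 values 161 kept direction and side of the threshold, and 6 genes (CYR61, CTGF, ANKRD1, AMOTL2, AXL and LATS2) never changed sign. The count at an unadjusted limma p under 0.05 did move. It was 1 with the length trend removed, 1 without ZBTB16 replicate 1, 2 without ZBTB16 replicate 2 and 0 otherwise. Of all tested genes 10.2% passed that threshold in the fit without these changes. Their share was not counted under the alternatives, so these member counts have no matching background. ANKRD1, at 4.97 FPKM, gave no value at a mean of at least 5 FPKM. With single libraries left out, log2 fold changes ran from -0.017 to 0.068 for YAP1, -0.040 to 0.047 for TEAD1, -0.040 to 0.053 for AMOTL1 and -0.016 to 0.040 for AJUBA. YAP1, TEAD1 and AMOTL1 were negative without empty-vector replicate 1. AMOTL1 was also negative without ZBTB16 replicate 1 or 2, and at -0.0050 with voom. AJUBA was negative without ZBTB16 replicate 3 and, at -0.0060, without empty-vector replicate 3. The cause of these reversals was not tested. With the length trend removed YAP1 and TEAD1 were at 0.03 and 0.01. The further targets gave 1 call, GADD45A, higher at a mean of at least 5 FPKM, among protein-coding genes alone and with voom. Over all genes 8 were higher, the transfected ZBTB16 among them, and 1 lower. These counts were 44 and 31 at a mean of at least 5 FPKM, 56 and 33 among protein-coding genes, 102 and 104 with voom, 13 and 3 with quantile normalization, 14 and 3 with the length trend removed, and 1 and 0 both with no filter and with a constant prior. At a pseudocount of 0.1, 2 were lower, and with the replicate block 3. With a library left out 1 to 4 were higher and 0 to 2 lower. The cause of the moving counts was not tested. Same-numbered libraries had deviations correlated at 0.067, 0.047 and -0.044, and differently numbered ones at -0.084 to 0.041. So few libraries cannot decide whether replicate numbers pair them. The replicate block called 0 of the 10 genes. Depth limits ANKRD1 most, with 134 to 201 reads per library.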
